A study of Homo sapiens with 3 samples.

Results

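The transcripts followed here were those of 47 lysosomal genes in U87 glioma cells: progranulin (GRN), the cathepsins, other hydrolases of the lysosome, and proteins of its membrane, its proton pump and its control. They were taken as a list of names, and the list was chosen because GRN and CTSK were far higher in U87WT than in U87Mut cells. The clone ratio on the arrays is therefore a description and carries no test. All 47 genes had a probe, out of 25006 genes that could be named on the array, and each gene is given by its brightest probe. U87 (U-87MG) is a human glioblastoma cell line. U87WT cells carry GFP-IGF1R, a vector for the wild-type type 1 insulin-like growth factor receptor fused to green fluorescent protein, and U87Mut cells carry GFP-IGF1R1025x-1100x-1120x, in which 3 lysines were changed to arginines so that the receptor is not moved to the nucleus. Both were stable clones selected with G418, and each is 1 clone, so that a difference between clones cannot be told apart from an effect of the receptor's localization. Both were cultured for 24 h in FBS-free medium, with IGF1 (50 nM), or with IGF1 (50 nM) and OSI906, a kinase inhibitor that acts on IGF1R and on the insulin receptor. The dose of OSI906 is 0.5 μM in the sample title and 500 μM in the label of the medium, and its preincubation is 1 h in the methods and 24 h in the labels. On each of the 3 arrays, RNA of U87WT labeled with Cy5 was hybridized together with RNA of U87Mut labeled with Cy3.

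Lysosomes are acidic organelles in which proteins, sugar chains and lipids are broken down. A proton pump (V-ATPase) acidifies the lumen, the hydrolases reach it mostly by way of mannose 6-phosphate receptors, and transcription factors of the MiT family, TFEB, TFE3 and MITF, raise the expression of many lysosomal genes when they enter the nucleus. Progranulin is a secreted glycoprotein that is also taken into lysosomes and cut into granulins, and gliomas are known to make it together with cathepsins that cut the extracellular matrix.

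With 1 array per condition and U87WT always in Cy5, the values carry no replicate error, and a probe's dye bias cannot be told apart from a clone difference. Between 50.1% and 52.8% of the 58201 probes exceeded background clearly in both channels, and no probe was saturated. Of the 47 members, 45 were well above background in each of the 6 samples, and CTSH and CTSZ were not. Values are log2 ratios of U87WT over U87Mut brightness after background correction and loess normalization, and genes were counted past a size of 0.5. The median SD of this ratio over repeated spots of 1 probe was between 0.045 and 0.050 on the arrays. A single ratio had an SD, estimated from the FBS-free and OSI906 arrays over 27677 bright probes, of 0.143, which holds noise and response together. For IGF1R itself the array values were 0.07 in FBS-free medium, 0.23 with IGF1 and 0.09 when OSI906 was present; whether its probe detects the transfected receptor was not tested. Of 7 markers looked up for a glioma line, CD44, VIM, NES and OLIG2 were well above background in every sample and GFAP, S100B and SOX2 were not. OLIG2 had a brightness of only 66.0 to 70.7, which includes an offset of 50 added in the background correction. CDKN2A and CDKN2B, genes that U87 cells are known to lack, were also well above background in every sample. Their brightness was between 189 and 259 and between 65.5 and 102, so that being well above background does not by itself show expression. The members ARSB, CTSS and MCOLN1 were counted as well above background but were dimmer than CDKN2A in every sample. Their log2 brightness was 6.62 to 6.88, 6.48 to 6.79 and 7.13 to 7.45, against 7.56 to 8.02 for CDKN2A. Ratios near 0 of these members do not show that the clones were alike.

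In FBS-free medium 9 of the 47 members were above 0.5 and 1 was below -0.5. After IGF1 these numbers were 10 and 0, and after IGF1 with OSI906 they were 7 and 1. Among all named genes, 4.0% were above 0.5 and 3.75% below -0.5 in FBS-free medium, 4.58% and 2.87% on the IGF1 array, and 3.60% and 3.48% on the OSI906 array. Among the 15344 bright genes, those well above background in every sample, 6.30%, 7.18% and 5.75% were above 0.5 in the same order and 6.10%, 4.61% and 5.66% below -0.5. The members above 0.5 on every array were GRN, CTSK, CTSF, GAA, CTSA and NPC2. They are 12.8% of the members, beside 1.89% of all named genes and 3.02% of the bright genes, and 0 members were below -0.5 on every array, beside 1.46% and 2.37%. The median ratio of the members was 0.12, 0.17 and 0.13 in the order of the arrays, and 0.11, 0.17 and 0.05 without GRN and CTSK, where that of the bright genes was -0.01, 0.02 and -0.01. Of the members, 26 were above 0 on every array, beside 24.4% of all named and 28.2% of the bright genes, and 3 below 0, beside 23.9% and 28.3%. Throughout, 35 members stayed within 0.5 of 0, as did 21519 of the 25006 named and 12050 of the 15344 bright genes. Since the list was chosen on this ratio, nothing is read from these shares.

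**Figure D1:**
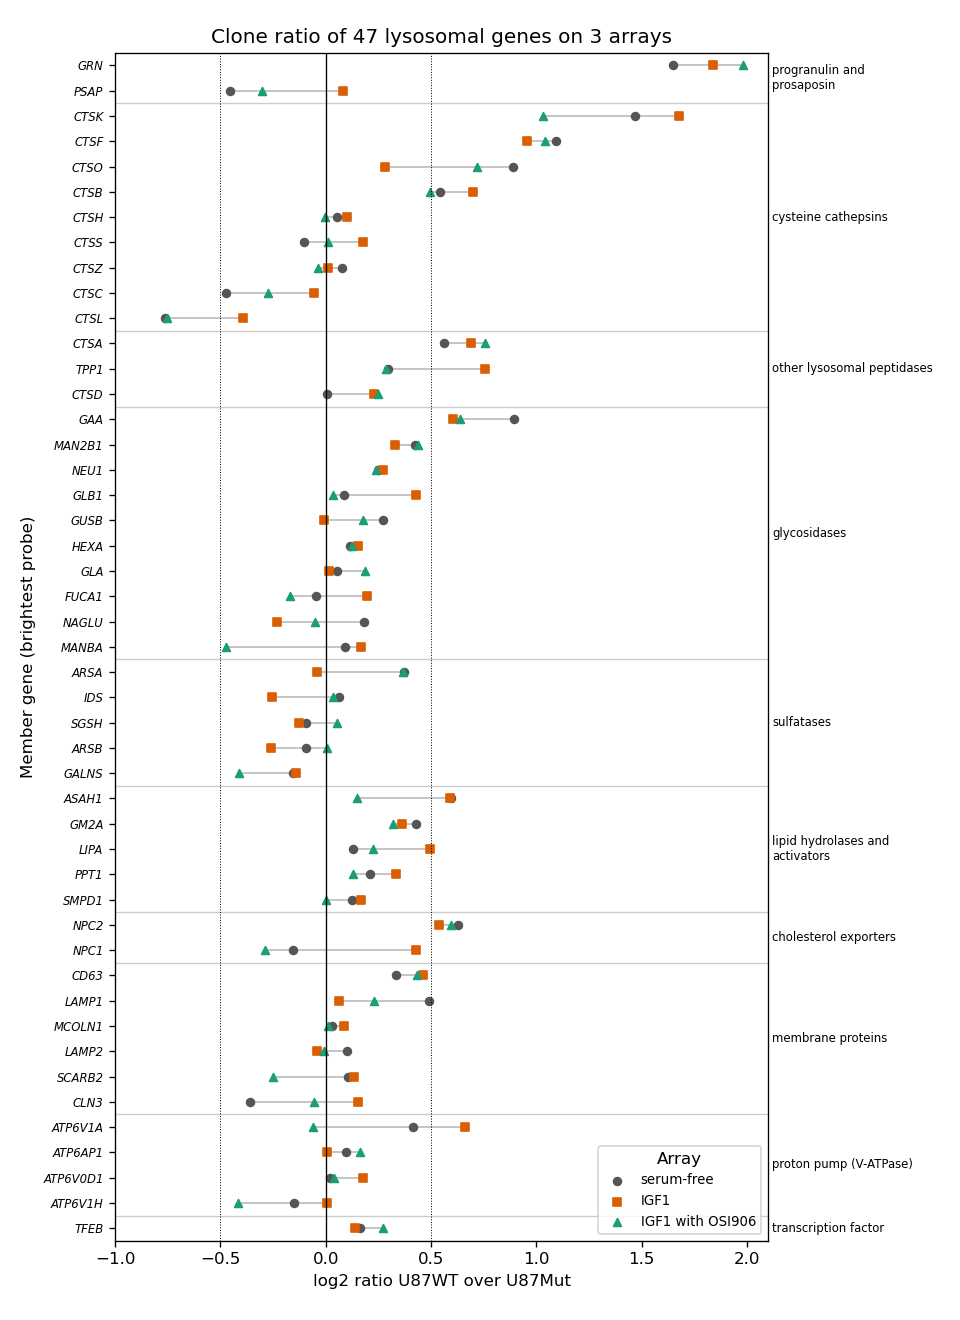
Log2 ratio of U87WT over U87Mut brightness (x axis) for the 47 members (y axis, brightest probe), grouped by role, with 1 symbol per array and dotted lines at 0.5 and -0.5. GRN and CTSK lie above 1 on every array, 6 members lie above 0.5 on every array, and CTSL is the member with the lowest mean ratio.

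GRN was measured by 1 probe. Its normalized brightness, in arbitrary units, was 112656 in U87WT and 35878 in U87Mut in FBS-free medium, 76752 and 21461 after IGF1, and 98009 and 24792 after IGF1 with OSI906. Every U87WT sample was brighter than every U87Mut sample. On the log2 scale the ratios came to 1.65, 1.84 and 1.98 in the order of the arrays, or 3.14-fold, 3.58-fold and 3.95-fold, and by ratio GRN was number 30, 13 and 10 of the 15344 bright genes. These are values that chose the list. With the signals processed by the scanner software they were 1.34, 1.65 and 1.73.

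CTSK codes for cathepsin K, the collagen-cutting protease that osteoclasts use to resorb bone. Its brightness was 81659 in U87WT and 29516 in U87Mut in FBS-free medium, 65721 and 20579 after IGF1, and 58784 and 28713 after IGF1 with OSI906. As for GRN, every U87WT sample was above every U87Mut sample. The log2 ratios, which also chose the list, were 1.47, 1.68 and 1.03, so that U87WT exceeded U87Mut 2.77-fold, 3.19-fold and 2.05-fold, and the ratio was smallest on the array with OSI906.

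The remaining cysteine cathepsins did not follow CTSK as a family. CTSF, a cathepsin with a long propeptide, was next, with a brightness of 8537 in U87WT and 4005 in U87Mut in FBS-free medium, 5701 and 2942 after IGF1, and 7936 and 3851 after IGF1 with OSI906. Its ratios of 1.09, 0.95 and 1.04 differed from array to array by no more than the SD of a single ratio, which was estimated without the IGF1 array. This did not hold in every setting. The ratios of CTSF were 1.09, 0.83 and 1.04 with the background fitted on all spots, and 0.91, 1.51 and 1.26 with median normalization. CTSO had 1925 and 1041 in FBS-free medium, 868 and 714 after IGF1, and 1721 and 1046 after IGF1 with OSI906, that is ratios of 0.89, 0.28 and 0.72. U87WT was thus brighter for CTSO on every array, by less after IGF1, where the ratio was -0.14 with the background fitted on all spots and -0.22 in the deposited ratios. CTSB, the abundant cathepsin B that is often studied in glioma invasion, had ratios of 0.54, 0.70 and 0.49. CTSL went the other way: its brightness was 8502 in U87WT and 14438 in U87Mut in FBS-free medium, 9393 and 12347 after IGF1, and 10249 and 17313 after IGF1 with OSI906. All 3 U87Mut samples were brighter than all 3 U87WT samples, and the ratios were -0.76, -0.39 and -0.76. CTSC, which activates the serine proteases of granules, was below 0 on every array by its brightest probe (-0.48, -0.06 and -0.27), while 1 of its 2 dimmer probes gave 0.10 in FBS-free medium. CTSS was between -0.10 and 0.18, but it was dimmer than CDKN2A in every sample. CTSH and CTSZ, which were not well above background, give no ratio to read.

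**Figure D2:**
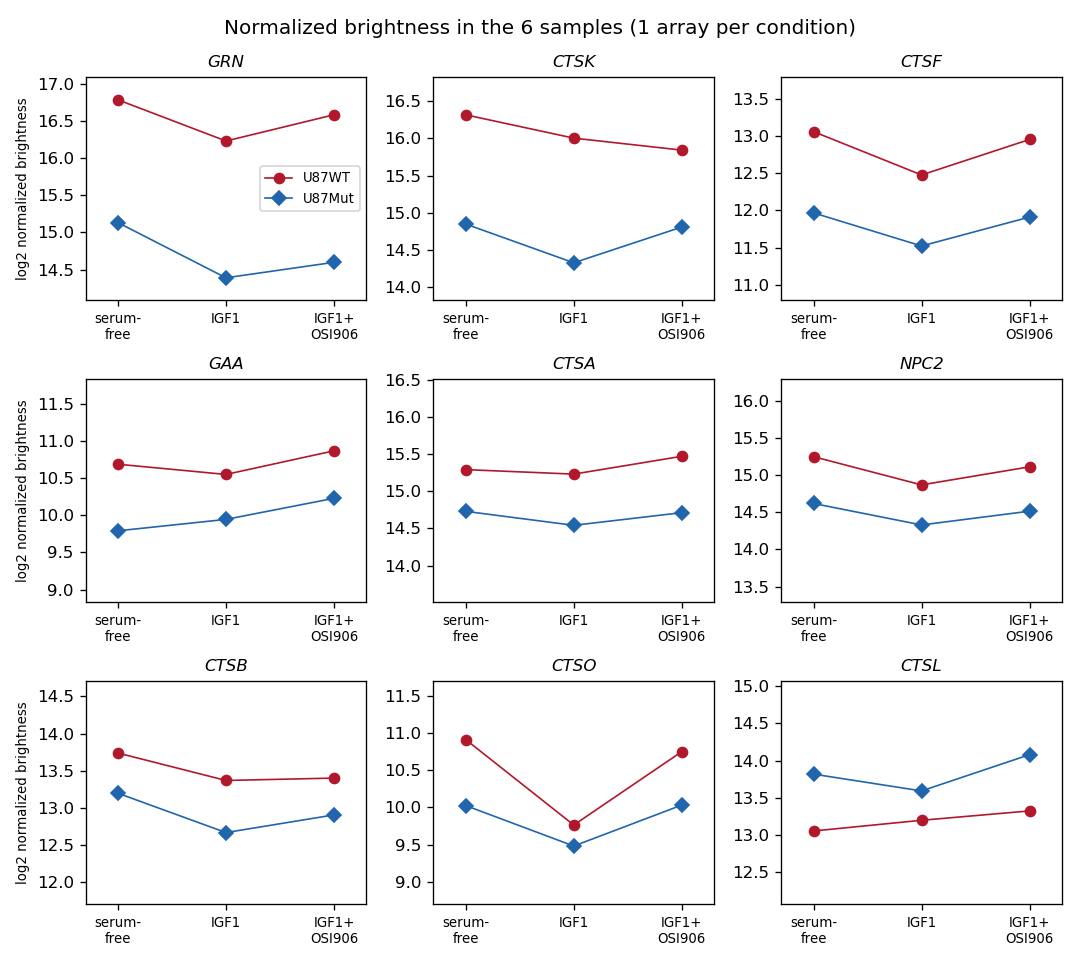
Log2 normalized brightness (y axis) of 9 members in the 6 samples, U87WT as circles and U87Mut as diamonds, against the condition of the array (x axis); every panel spans 3 log2 units. U87WT lies above U87Mut on every array for all panels except CTSL, where it lies below.

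Of the other peptidases, CTSA, the carboxypeptidase that also protects beta-galactosidase and neuraminidase, had a brightness of 40053 in U87WT and 27153 in U87Mut in FBS-free medium, 38407 and 23836 after IGF1, and 45343 and 26818 after IGF1 with OSI906. Its ratios were 0.56, 0.69 and 0.76, but those of its second probe were 0.15, 0.28 and 0.18, and with the mean of both probes CTSA did not pass 0.5 on any array. TPP1, which removes tripeptides from protein ends, had ratios of 0.30, 0.76 and 0.29, and by its second probe 0.19, -0.09 and 0.21. The aspartic protease CTSD was at 0.01, 0.23 and 0.25.

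Among the 10 glycosidases only GAA, the enzyme that breaks down glycogen in lysosomes, passed 0.5. Its brightness was 1645 in U87WT and 885 in U87Mut in FBS-free medium, 1496 and 984 after IGF1, and 1865 and 1198 after IGF1 with OSI906. Its log2 ratios were 0.89, 0.60 and 0.64, and the one after IGF1 was 0.18 when the background was fitted on all spots. The 9 others, FUCA1, GLA, GLB1, GUSB, HEXA, MAN2B1, MANBA, NAGLU and NEU1, stayed within 0.5 of 0 on every array, from -0.47 for MANBA with OSI906 to 0.44 for MAN2B1 on the same array. FUCA1 and GUSB, which were each spotted 10 times, show how tightly an array measures such values: the ratio of GUSB was 0.27, -0.01 and 0.17 with SDs over spots of 0.036, 0.033 and 0.041, and that of FUCA1 was -0.05, 0.20 and -0.17 with SDs of 0.076, 0.055 and 0.094. These SDs are technical, within 1 array. None of the 5 sulfatases passed 0.5; ARSA, which removes sulfate from sulfatide, had 0.37, -0.04 and 0.37, and ARSB, GALNS, IDS and SGSH, which act on glycosaminoglycans, lay between -0.41 and 0.06.

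Prosaposin (PSAP), the precursor of the saposins and a partner of progranulin on its way to the lysosome, did not share the excess of GRN. Its brightness was 11713 in U87WT and 16031 in U87Mut in FBS-free medium, 15457 and 14600 after IGF1, and 13174 and 16260 after IGF1 with OSI906. U87Mut was the brighter clone without IGF1 and with OSI906, and after IGF1 the clones were level. The ratios were -0.45, 0.08 and -0.30 by the brightest probe and -0.49, -0.00 and -0.59 by the other.

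The lipid enzymes were mostly slightly above 0, and all 5 were above 0 on every array by their brightest probes, though a dimmer probe of PPT1 had 0.09, -0.00 and -0.09. ASAH1, an acid ceramidase, had ratios of 0.59, 0.59 and 0.15, GM2A, the activator of ganglioside breakdown, 0.43, 0.36 and 0.32 (0.28, 0.52 and 0.14 by its dimmer probe), and LIPA, the acid lipase that frees cholesterol from its esters, 0.13, 0.49 and 0.23. PPT1 and SMPD1 did not exceed 0.33. Both proteins that export cholesterol from lysosomes are members. NPC2, the soluble carrier, had a brightness of 38906 in U87WT and 25155 in U87Mut in FBS-free medium, 29909 and 20594 after IGF1, and 35392 and 23416 after IGF1 with OSI906, and its ratios of 0.63, 0.54 and 0.60 were among the steadiest of the members. They were 0.41, 0.42 and 0.41 with the signals of the scanner software. NPC1, the membrane transporter that takes over from NPC2, had -0.16, 0.43 and -0.29. Unlike those of NPC2, these ratios were not above 0 on every array. The SDs over the 10 spots of NPC1 were 0.050, 0.040 and 0.044, which are technical, within 1 array, and hold no error between arrays or cultures.

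The proteins of the lysosomal membrane differed less. CD63 was at 0.33, 0.46 and 0.43, LAMP1 at 0.49, 0.06 and 0.23, and CLN3, LAMP2, MCOLN1 and SCARB2 lay between -0.36 and 0.15 by their brightest probes. The dimmer probes of LAMP2 had 0.25, 0.13 and 0.11, and 0.27, 0.54 and -0.06, the latter past 0.5 after IGF1. Of the 4 proton pump genes, ATP6V1A, the catalytic subunit, had 0.42, 0.66 and -0.06, and ATP6AP1, ATP6V0D1 and ATP6V1H lay between -0.42 and 0.18. TFEB had ratios of 0.16, 0.14 and 0.27 by its brightest probe and 0.51, 0.90 and 0.63 by a dimmer one. The probes therefore put TFEB on different sides of 0.5, and no single value is given for it.

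TFEB and its relatives bind a palindrome called the CLEAR box, whose core CACGTG is an E-box, and MITF also binds the M-box TCATGTG. These letters were searched on both strands in RefSeq promoters (GRCh38.p14, 300 bases around a start), which were at hand for 33 of the 47 members and 27305 genes. CTSK was not among the 33 and was not searched. The core CACGTG, which the CLEAR box contains, was found in 12 of the 33 members (36.4%) and in 8.77% of all genes, and the CLEAR box in 3 (9.09%), GAA, GALNS and MCOLN1, against 0.421%. The M-box was found in 6 members (18.2%), CD63, CTSA, GRN, PPT1, SCARB2 and TPP1, against 3.59%. A match describes the letters and not a binding site. The shares describe genes that were listed as lysosomal, and not these cells or clones. The 12 members with CACGTG had median clone ratios of 0.14, 0.20 and 0.23 in the order of the arrays and the 21 without it 0.11, 0.17 and 0.13. The promoters of 4 of the members above 0.5 on every array are shown because they hold such motifs; capitals mark CACGTG and the M-box, which reads CACATGA on the strand printed. They are GRN (chr17:44345052-44345351, + strand), GAA (chr17:80101331-80101630, + strand), CTSA (chr20:45891085-45891384, + strand) and CTSF (chr11:66568557-66568856, - strand).
GRN: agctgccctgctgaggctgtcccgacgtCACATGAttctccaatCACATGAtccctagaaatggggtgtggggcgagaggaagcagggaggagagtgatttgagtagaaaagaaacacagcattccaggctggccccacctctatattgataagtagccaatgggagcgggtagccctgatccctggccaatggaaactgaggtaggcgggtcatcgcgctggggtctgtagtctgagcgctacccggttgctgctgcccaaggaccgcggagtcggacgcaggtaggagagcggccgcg
GAA: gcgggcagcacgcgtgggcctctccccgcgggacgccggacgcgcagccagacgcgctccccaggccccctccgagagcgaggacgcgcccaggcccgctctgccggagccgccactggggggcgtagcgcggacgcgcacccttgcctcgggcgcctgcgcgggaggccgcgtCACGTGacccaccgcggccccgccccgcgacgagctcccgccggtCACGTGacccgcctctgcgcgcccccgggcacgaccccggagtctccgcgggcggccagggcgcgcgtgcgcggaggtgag
CTSA: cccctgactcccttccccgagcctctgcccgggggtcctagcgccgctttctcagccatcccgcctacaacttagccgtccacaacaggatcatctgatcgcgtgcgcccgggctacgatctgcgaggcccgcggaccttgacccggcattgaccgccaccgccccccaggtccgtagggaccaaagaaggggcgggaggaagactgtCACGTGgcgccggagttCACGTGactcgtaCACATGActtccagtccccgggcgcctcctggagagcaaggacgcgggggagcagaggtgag
CTSF: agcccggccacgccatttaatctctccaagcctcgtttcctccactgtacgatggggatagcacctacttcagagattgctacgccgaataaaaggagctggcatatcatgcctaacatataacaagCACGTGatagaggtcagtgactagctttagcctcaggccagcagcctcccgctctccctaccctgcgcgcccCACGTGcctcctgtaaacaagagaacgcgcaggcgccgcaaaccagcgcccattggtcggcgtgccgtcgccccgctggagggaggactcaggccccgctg
GRN holds 2 M-boxes and no CACGTG, GAA 2 CLEAR boxes, CTSA 2 cores and 1 M-box, and CTSF 2 cores, while both promoters of NPC2 hold none of these letters. Of the 3 members with a CLEAR box, GAA had ratios of 0.60 or above on every array, and GALNS and MCOLN1 of 0.09 or below. MCOLN1 was dimmer than CDKN2A in every sample. The ratio of GAA after IGF1 was below 0.5 with the background fitted on all spots. Whether these motifs bear on the clone ratio was not tested.

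Around the members, 114 other genes of the lysosome and of autophagy were listed, and 108 of them had a probe that could be named. On every array 5 of these were above 0.5 and 2 below -0.5, beside 1.89% and 1.46% of all named genes and 3.02% and 2.37% of the bright genes. Throughout, 86 stayed within 0.5 of 0, as did 21519 of the 25006 named genes. MITF, the MiT family factor that drives CTSK and ACP5 in osteoclasts, had a brightness of 841 in U87WT and 384 in U87Mut in FBS-free medium, 534 and 260 after IGF1, and 530 and 322 after IGF1 with OSI906. Its ratios were 1.13, 1.04 and 0.72, and its 2 dimmer probes were also above 0 on every array, from 0.34 to 1.15. The ratio of MITF after IGF1 was 0.33 when the background was fitted on all spots and 0.32 in the deposited ratios. In U87Mut after IGF1 its brightness was close to the highest of CDKN2A, 259. Whether MITF acts on CTSK or ACP5 in these cells was not tested. ACP5, the tartrate-resistant acid phosphatase of osteoclasts, had 0.69, 0.74 and 0.64, and 0.53, 1.33 and 0.89 with median normalization. SORT1, the receptor that takes progranulin into cells, had 0.58, 0.80 and 0.75, and 0.20 after IGF1 with the background fitted on all spots. TPCN1, an ion channel of the endolysosomal membrane, had 0.88, 0.88 and 0.73, and CSTA, an inhibitor of cysteine cathepsins, 0.55, 1.01 and 0.59. RRAGD, a GTPase that links lysosomes to mTORC1, was lower in U87WT, at -0.64, -0.54 and -1.04, and so was MAP1LC3B, which coats autophagosomes, at -0.88, -0.66 and -0.72. With median normalization RRAGD and MAP1LC3B were at -0.17 and -0.11 after IGF1, and SORT1 and CSTA at 0.33 and 0.27 in FBS-free medium. That setting moved the median of the bright genes itself to -0.17, 0.30 and 0.05 in the order of the arrays. Of 42 other lysosomal enzymes and membrane proteins 2 were above 0.5 on every array, and of 18 other proton pump subunits 0, to be read beside the same 1.89% and 3.02%.

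**Figure D3:**
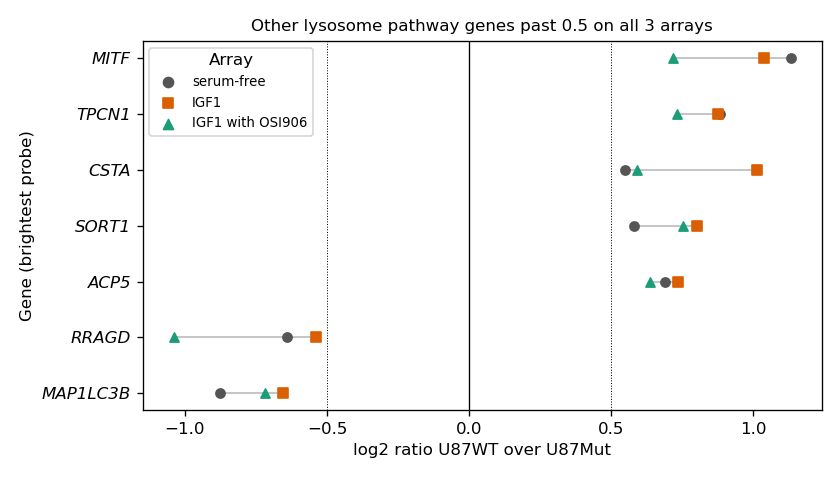
Log2 ratio of U87WT over U87Mut brightness (x axis) of the 7 listed pathway genes outside the members (y axis) that were past 0.5 with the same sign on all 3 arrays, with 1 symbol per array. MITF, TPCN1, CSTA, SORT1 and ACP5 lie to the right of 0.5, and RRAGD and MAP1LC3B to the left of -0.5.

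CTSK and ACP5 are known from osteoclasts and several cathepsins from macrophages, so 8 markers of myeloid cells and osteoclasts were looked up. AIF1, CALCR and ITGAM were not well above background on every array. PTPRC, CD14 and TYROBP were, with brightness between 68.0 and 91.7 in all 6 samples and ratios within 0.21 of 0. CSF1R, a receptor of macrophages and osteoclast precursors, was above 0.5 on every array (0.55, 0.62 and 0.72), and OSCAR below 0 (-0.66, -0.43 and -0.43) by the brighter of its 2 probes. These were brighter than the other markers, between 438 and 963 for CSF1R and between 598 and 1744 for OSCAR. The part of such cells in the ratios was not tested.

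The list was not chosen on the difference between conditions within a clone, so these were followed next. They compare the same dye on different arrays after normalization of mean brightness between arrays, and the median SD over repeated spots of 1 probe in 1 channel was between 0.123 and 0.165. Both clones share each spot, so an effect of the spot or the array moves both in the same direction. With 1 array per condition these differences have no replicate check. After IGF1, compared with FBS-free medium, 3 of 47 members (6.38%) were lower by more than 0.5 in U87WT cells, CTSO (-1.15), CTSF (-0.58) and GRN (-0.55), and 0 were higher. In U87Mut cells 5 (10.6%) were lower, GRN (-0.74), TPP1 (-0.56), CTSO (-0.54), CTSB (-0.53) and CTSK (-0.52), and 0 were higher. Among all named genes 1.62% were lower past 0.5 in U87WT and 1.04% in U87Mut, and among the bright genes 2.55% and 1.69%; those higher were 1.30% and 0.536% of all genes and 1.94% and 0.808% of the bright genes. The median over the members was -0.10 in U87WT and -0.17 in U87Mut, beside 0.00 and -0.01 over all genes. Without normalization between arrays 13 members were lower in each clone, where the median of the bright genes was itself shifted to -0.16 and -0.21. The difference of GRN in U87WT was -0.29 with the background fitted on all spots, -0.40 with the signals of the scanner software and -0.15 with median normalization. With median normalization that of CTSF in U87WT was -0.22, where the median of the bright genes was itself 0.23. The difference of TPP1 in U87Mut was -0.09 as the mean of its probes.

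When OSI906 was added to IGF1, 3 members (6.38%) were higher by more than 0.5 in U87WT, CTSO (0.99), SGSH (0.58) and SMPD1 (0.53), against 2.24% of all and 3.62% of bright genes, and ATP6V1A was lower (-0.51), against 2.26% and 3.51%. In U87Mut 2 members (4.26%) were higher, SMPD1 (0.69), the acid sphingomyelinase, and CTSO (0.55), against 1.26% and 2.05%, and 0 were lower, against 0.620% and 0.952%. CTSO thus had the widest differences of the members in U87WT, while in U87Mut GRN was further from 0 after IGF1 and SMPD1 when OSI906 was added. In U87WT the brightness of CTSO went from 1925 to 868 with IGF1 and stood at 1721 with IGF1 and OSI906, and in U87Mut from 1041 to 714 and 1046. With the background fitted on all spots the differences of CTSO in U87Mut were -0.32 and 0.33. ATP6V1A in U87WT was at -0.48 with the signals of the scanner software, and SGSH and SMPD1 in U87WT were at 0.41 and 0.36 with median normalization. GRN was 0.35 higher with OSI906 in U87WT and 0.21 in U87Mut, and CTSK -0.16 and 0.48. The medians over the members were 0.10 and 0.19, beside -0.01 and 0.01 over all genes. The differences after IGF1 and with OSI906 share the 1 IGF1 array, so an error of that array enters them with opposite signs. A reversal with OSI906 cannot be told apart from such an error. Between IGF1 with OSI906 and FBS-free medium the member medians were -0.004 in U87WT and -0.014 in U87Mut. Past 0.5, 0 members were higher and 2 lower in U87WT, beside 368 and 349 of the 25006 named genes. In U87Mut these were 0 and 1, beside 104 and 115.

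**Figure D4:**
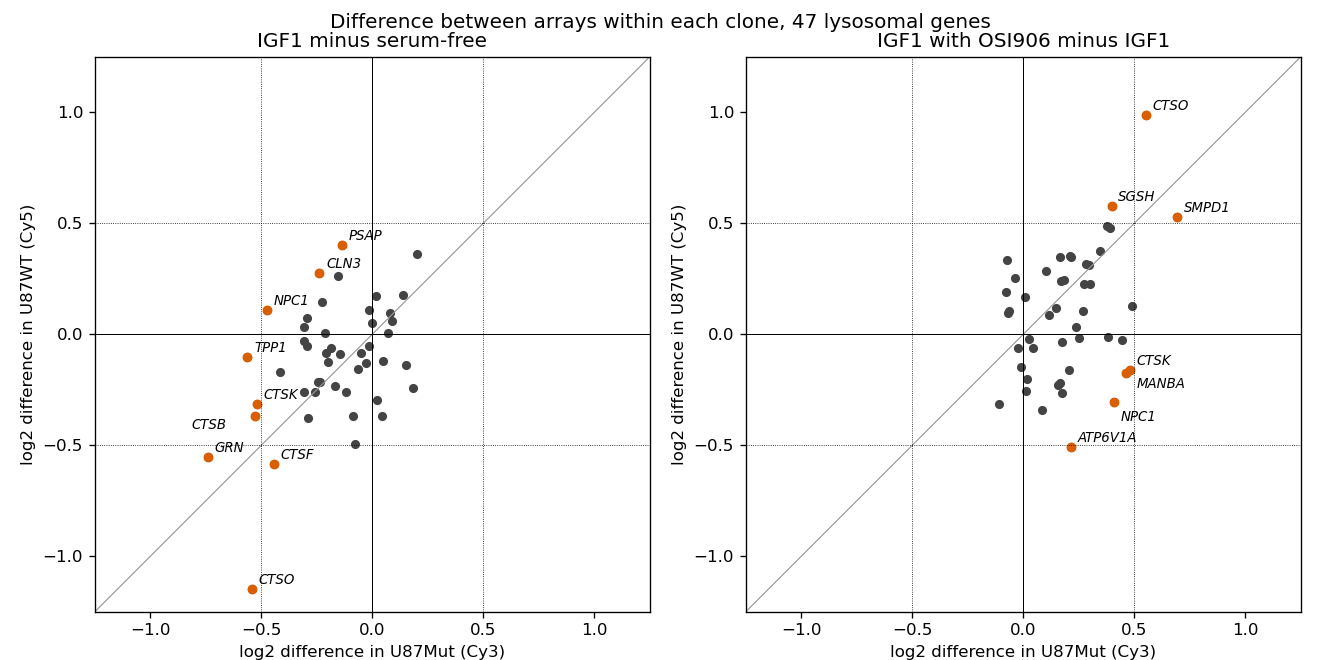
Difference in log2 normalized brightness between arrays within U87Mut (x axis, Cy3) and within U87WT (y axis, Cy5) for the 47 members, IGF1 minus FBS-free medium on the left and IGF1 with OSI906 minus IGF1 on the right. Dotted lines mark 0.5 and -0.5, the gray line equal differences, and named points are past 0.5 in a clone or in the difference between clones. CTSO lies lowest on the left, at -1.15 in U87WT, and highest on the right, at 0.99.

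The response of U87WT minus that of U87Mut, which equals the change of the clone ratio from array to array, exceeded 0.5 in size for 4 members after IGF1: NPC1 (0.58), PSAP (0.54), CLN3 (0.51) and CTSO (-0.60). Among all named genes 3.44% passed this size, and among the bright genes 5.30%. NPC1 moved by 0.11 in U87WT and -0.47 in U87Mut, and PSAP by 0.40 and -0.13. The value of CTSO was 0.06 with median normalization. Under that setting the median ratio of the bright genes was itself -0.17 in FBS-free medium and 0.30 after IGF1. When OSI906 was added, 4 members passed 0.5, NPC1 (-0.72), ATP6V1A (-0.72), MANBA (-0.64) and CTSK (-0.64), beside 3.85% of all genes and 6.04% of the bright genes. All 4 were negative, that is the ratio of U87WT over U87Mut was smaller with OSI906 than with IGF1 alone. The shares count both directions, so nothing is read from the common sign. The median of this difference was -0.05 over the members and -0.04 over the bright genes. The ratio of NPC1 thus went from -0.16 to 0.43 and to -0.29 over FBS-free medium, IGF1, and IGF1 with OSI906. With the background fitted on all spots NPC1 after IGF1 was at 0.38, CLN3 at 0.28 and MANBA at -0.30, and did not pass 0.5, while PSAP, ATP6V1A and CTSK, and NPC1 with OSI906, passed it in every setting run. The difference of these responses between the clones was not tested, since each rests on 1 array per condition. These differences are made from the clone ratios, and those of CTSK chose the list, so they are a description only. Those after IGF1 and with OSI906 also share the IGF1 array.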

How the data were processed

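Gene expression was measured on 3 two-color Agilent SurePrint G3 Human Gene Exp v3 arrays, 1 per condition, all from 1 scan date. The authors deposited intensity values as Agilent Feature Extraction 12.0.3.1 gave them, which are the median brightness of each spot and its local background, without normalization, and processed intensities, to which the software had applied its background and dye corrections. A deposited table held log2 ratios (U87WT over U87Mut), background-corrected and normalized with limma (kinds not given in the sources used here), which were used as an alternative. Their direction was checked: over bright probes they correlated with ratios computed here, using a fit on all spots, at Pearson r between 0.989 and 0.995, and their medians were -0.0066, -0.0074 and -0.0030. The correlation is across probes, which are not independent replicates.

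In R 4.3.3 with limma 3.58.1, normexp (offset 50) was fitted without the 384, 572 and 5 spots marked as not uniform on the arrays of FBS-free medium, IGF1, and IGF1 with OSI906. This matters for the IGF1 array, where the fit gave the Cy5 background an SD of 1.32, against 701 with all spots. The 2075 control spots were removed, marked spots (463, 638 and 96) left out, arrays normalized by loess within and Aquantile between arrays, and spots averaged. Genes were named by RefSeq transcript (GRCh38.p14) for 34892 of 58201 probes. The steps were tested on simulated data.

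The members and lists were chosen with earlier results of these data known. No p value was computed, as each condition has 1 array, and calls are by a size of 0.5. The number of arrays limits the precision. Named with values were the members past 0.5 on every array, the 3 highest and 3 lowest by mean ratio, those past 0.5 in a response, and the pathway genes past 0.5 on every array; other members and markers were named to account for the lists. Alternatives were other background corrections, offset 20, processed signals, median normalization, none between arrays, the mean of all probes, bright probes alone, the deposited ratios, and leaving out the IGF1 array.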

Additional observations from a re-analysis of the deposited data

How the results depend on the processing

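Each log2 ratio compares the clones on 1 array and is paired in that sense. No paired analysis was possible because the 3 arrays are of 3 conditions, so that no pair is a replicate of another, and the members were chosen on this ratio. GRN and CTSK stayed above 0.5 on every array in all settings run. With the background fitted on all spots, the ratio after IGF1 was 2.40 for GRN and 2.20 for CTSK, and with the deposited ratios 2.54 and 2.33. With median normalization these were 2.64 and 2.46, and 2.44 and 1.47 after IGF1 with OSI906; with the signals of the scanner software GRN had 1.34, 1.65 and 1.73 and CTSK 1.16, 1.46 and 0.80 in the order of the arrays. The count of members higher in U87WT on all arrays was between 5 and 7 in every setting. Median normalization, under which the median of the bright genes moved to -0.17, 0.30 and 0.05, raised the members above 0.5 to 32 on the IGF1 array and 12 on the OSI906 array, and left 4 below -0.5 in FBS-free medium and 0 with OSI906. Members below -0.5 in FBS-free medium were 2 with the deposited ratios and with offset 20, and 3 with the signals of the scanner software; after IGF1 they were 2 with the deposited ratios, with OSI906 2 without background correction, and 1 on both arrays without the IGF1 array (CTSL).

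The counts of responses depend more on the setting. With median normalization the median response of the bright genes to IGF1 was itself -0.28 in U87Mut and 0.23 in U87WT, and with OSI906 it was 0.12 and -0.12. Members lower after IGF1 in U87Mut were 24 with median normalization, 13 with none between arrays and 3 with the background fitted on all spots; in U87WT they were 1, 13 and, with the signals of the scanner software, 5. Members higher after IGF1 in U87WT were 7 with median normalization and 1 with the background fitted on all spots. With OSI906, members higher in U87WT were 1 with median normalization, 7 with the background fitted on all spots and 6 with the signals of the scanner software, and members lower were 2, 0 and 0; in U87Mut 12 were higher with median normalization and 4 with the signals of the scanner software. The cause of these shifts was not tested. Dim members, such as CTSH and CTSZ, are limited by their signal over background.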
